A study of Mus musculus with 24 samples.

Results

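The messenger RNA of 7 aquaporin genes, Aqp1, Aqp3, Aqp4, Aqp5, Aqp7, Aqp8 and Aqp11, was followed through 24 RNA-sequencing libraries of dissected mouse gut. The genes were chosen by name, by matching the Ensembl identifiers of the deposited count tables to mouse gene symbols, and they are 7 of the 39179 genes counted. All 7 passed the filter on low counts, which left 20502 genes to test. The other 5 genes of the family matched by symbol, Mip, Aqp2, Aqp6, Aqp9 and Aqp12, are described further on.

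The series asks what loss of Cdx2, a homeobox transcription factor of the intestinal epithelium, does to the gut, and what a mutant allele of Apc, a negative regulator of Wnt signalling, adds. The libraries fall into 8 groups of 3. Untreated mice gave WT cecum, Cdx2+/- cecum and WT stomach. Cdx2-/- cecum was labelled Cdx2f/f::AhCreERT, that is, floxed Cdx2 alleles and a tamoxifen-dependent Cre driven by the CYP1A1 (Ah) promoter, and was treated with tamoxifen and β-naphthoflavone, an inducer of that promoter. It holds 2 sets of libraries, set 1 with replicates 1 to 3 and set 2 with replicates 4 to 6. Cdx2-/-;Apc+/- cecum and Cdx2-/-;Apc+/- ileum carried the Cdx2f/f::AhCreERT::ApcD14/+ genotype and had the same treatment. The Apc+/- ileum was untreated. Its labels conflict, because for replicates 1 and 3 the genotype lists the Cre and floxed Cdx2 while the description says that Cdx2 is not floxed, and the titles were followed. Every group labelled Cdx2-/- was treated and every other group was not, so treatment and deletion cannot be told apart where such a group is compared with an untreated one. The age of the mice and the number of animals behind each library are not stated in the labels, and the p-values measure the spread between these libraries, which may be technical.

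Aquaporins are membrane channels that let water cross a cell membrane along an osmotic gradient, and in the gut they work beside ion transporters that set up that gradient. Aqp1, Aqp4, Aqp5 and Aqp8 are mainly water channels, Aqp3 and Aqp7 also pass glycerol and are called aquaglyceroporins, and Aqp11 is a divergent member found on intracellular membranes. In the digestive tract Aqp8 is known from the absorptive cells of the large intestine, Aqp3 from the basolateral membrane of epithelia, Aqp1 from endothelium, Aqp4 from gastric parietal cells and glia, Aqp5 from glands that secrete fluid and from the pyloric glands of the stomach, and Aqp7 from adipocytes and small-intestinal epithelium.

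The upstream sequences of 4 of the 5 members called between Cdx2-/- and WT cecum are shown, those of Aqp8 and Aqp11, which fell, and of Aqp1 and Aqp3, which rose. The window of Aqp5, the fifth, lies almost wholly inside the annotated gene and is not printed. Each run is RefSeq sequence of GRCm38.p6, 5′ to 3′ on the strand of the gene, and ends at or before its first transcribed base. Aqp8 is shown at chr7:123462044-123462290 on the plus strand, Aqp11 at chr7:97738290-97738497 on the minus strand, Aqp1 at chr6:55336049-55336298 on the plus strand and Aqp3 at chr4:41098184-41098433 on the minus strand. Capitals mark CAAAG, the core shared by the binding motifs of Hnf4 and Tcf factors, on either strand.
Aqp8: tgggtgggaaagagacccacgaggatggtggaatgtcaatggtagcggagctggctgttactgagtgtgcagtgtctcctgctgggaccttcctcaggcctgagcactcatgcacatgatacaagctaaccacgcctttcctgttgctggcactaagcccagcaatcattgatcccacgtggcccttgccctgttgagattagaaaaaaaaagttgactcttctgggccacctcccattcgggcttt
Aqp11: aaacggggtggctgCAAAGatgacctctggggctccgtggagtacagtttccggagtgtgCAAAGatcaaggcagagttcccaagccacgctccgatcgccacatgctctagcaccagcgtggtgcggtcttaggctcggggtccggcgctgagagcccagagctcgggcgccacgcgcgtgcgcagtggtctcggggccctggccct
Aqp1: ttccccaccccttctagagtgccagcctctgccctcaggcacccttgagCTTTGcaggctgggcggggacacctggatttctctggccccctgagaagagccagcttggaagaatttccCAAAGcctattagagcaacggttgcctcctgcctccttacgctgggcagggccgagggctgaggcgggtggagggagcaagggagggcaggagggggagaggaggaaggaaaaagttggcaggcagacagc
Aqp3: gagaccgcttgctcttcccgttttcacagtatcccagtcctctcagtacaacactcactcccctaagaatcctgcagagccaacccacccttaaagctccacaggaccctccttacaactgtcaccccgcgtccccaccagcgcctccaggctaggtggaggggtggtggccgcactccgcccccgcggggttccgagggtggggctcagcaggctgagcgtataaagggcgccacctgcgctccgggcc
Motifs were searched on both strands of windows of 300 bases, 250 before and 50 after each RefSeq start. Aqp4 was not among the members whose windows were described. TTTATG, the core bound by Cdx factors, lay in 11.9% of the 32851 windows of all genes and in none of the windows of Aqp1, Aqp3, Aqp5, Aqp7, Aqp8 and Aqp11. GTTAAT, part of the Hnf1 motif, lay in 7.10% of all windows and in none of those 6 genes'. The Gata motif AGATAA lay in 11.2% of all windows and in 1 of the 2 Aqp7 windows, starting 132 bases before the start. CAAAG lay in 53.9% of all windows. It occurred 2 times in the window of Aqp1, 2 times in that of Aqp11 and 1 time each in those of Aqp3 and Aqp8, in the last 2 after the start and so outside the runs shown. The GC content of the windows was 79.7% for Aqp5, 68.0% for Aqp11, 64.0% for Aqp3, 62.7% for Aqp1, 52.0% for Aqp8, and 49.7% and 55.0% for the 2 windows of Aqp7, beside a median of 52.7% over all windows. Such matches describe the letters of these windows and say nothing about binding.

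In the GENCODE annotation of GRCm38 the members are spread over 5 chromosomes. Aqp8 (ENSMUSG00000030762) lies on chromosome 7 from 123462291 to 123468004, and Aqp11 (ENSMUSG00000042797) on the same chromosome from 97724006 to 97738289. Aqp3 (ENSMUSG00000028435) lies on chromosome 4 from 41092722 to 41098183 and Aqp7 (ENSMUSG00000028427) from 41033074 to 41048139, a gap of 44582 bases that holds no other protein-coding gene. Aqp1 (ENSMUSG00000004655) lies on chromosome 6 from 55336432 to 55348555. Aqp5 (ENSMUSG00000044217) lies on chromosome 15 from 99590782 to 99594829, between Aqp2, 6234 bases away, and Aqp6, 6570 bases away. Aqp4 (ENSMUSG00000024411) lies on chromosome 18 from 15389496 to 15410982 and overlaps an antisense gene that is not among the genes counted. Whether strand was kept in counting is not stated, so reads of the pair cannot be told apart. The 6 other members overlap no annotated gene.

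Libraries held 36567685 to 87975179 reads assigned to genes. Cdx2 itself, the targeted gene, ran from 408 to 663 CPM (counts scaled to library size with TMM factors) in WT cecum, from 130 to 349 CPM in the 6 Cdx2-/- cecum libraries, from 115 to 118 CPM in Cdx2+/- cecum and up to 1.52 CPM in WT stomach. Every Cdx2+/- cecum library thus had less Cdx2 than every Cdx2-/- cecum library, against the order the labels give. Counts over the whole gene do not show which exons were deleted, and groups are named as labelled. The Cdx2-/-;Apc+/- ileum libraries spread from 36.9 to 178 CPM, with replicate 2 above every Apc+/- ileum library. WT cecum replicate 3 stood apart from replicates 1 and 2, with 9.60 CPM summed over 8 markers of gastric surface and mucous neck cells against 285 and 720 CPM, and 3786 CPM over 6 smooth muscle markers against 1961 and 1118 CPM. Set 1 replicates 2 and 3 were closer to each other than any other pair of same-group libraries, with a chi-square per degree of freedom of 7.03 against 53.0 to 507 in the others of the 24 pairs. In bulk tissue, fewer cells of a type and less RNA per cell cannot be told apart.

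The leading aquaporin differed between WT cecum, WT stomach and Cdx2-/- cecum. Compared per length, as RPKM (CPM divided by kilobases of exon), Aqp8 held 95.9 to 99.6% of the summed level of the 12 family genes in WT cecum. In WT stomach Aqp3 led, with 85.8 to 88.2%. In Cdx2+/- cecum Aqp3 also led, with 38.6 to 48.1%, followed by Aqp5 with 21.8 to 36.8% and Aqp1 with 11.9 to 17.4%. In set 1 of Cdx2-/- cecum Aqp5 led with 46.3 to 59.3%. Set 2, the Cdx2-/-;Apc+/- cecum and both ileum groups were led by Aqp1 or Aqp5, depending on the library. The sum itself ran from 581 to 2895 RPKM in WT cecum and did not exceed 311 RPKM in any library of the other groups.

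**Figure D1:**
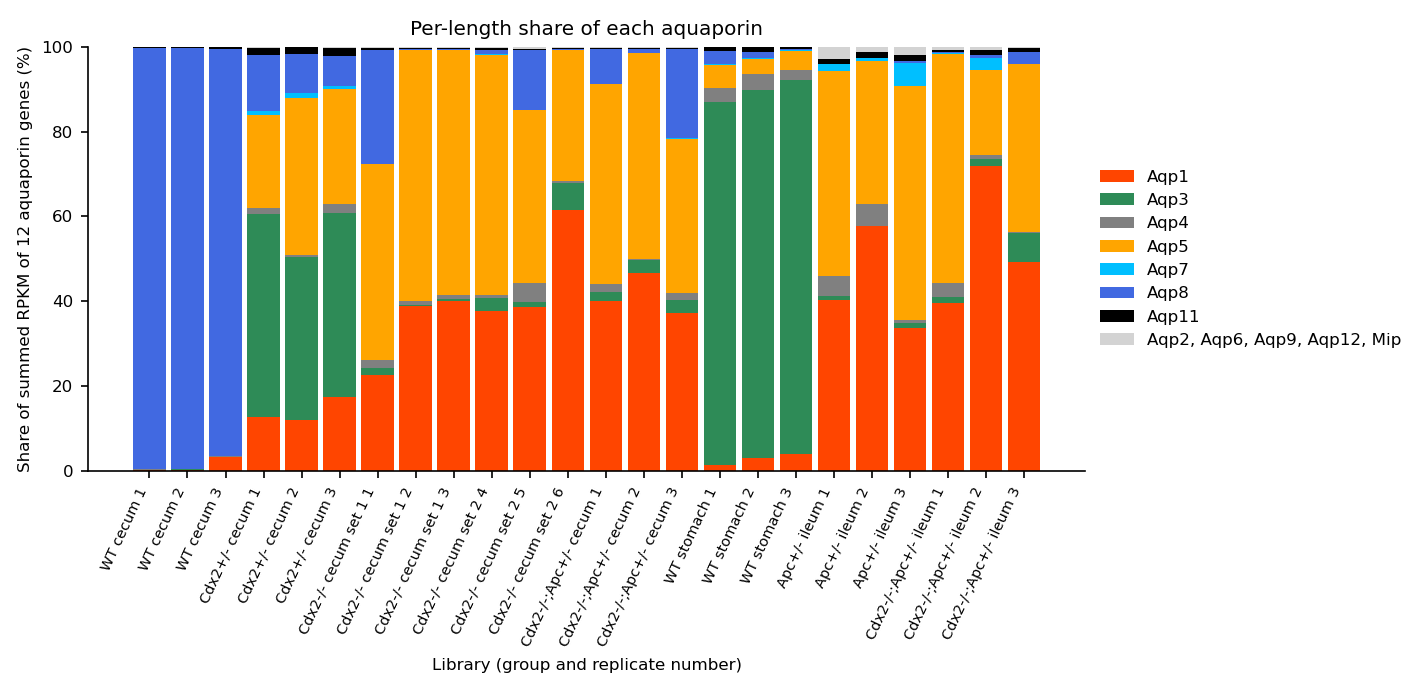
Stacked bars give each aquaporin's share (%) of the summed RPKM of 12 family genes in each of the 24 libraries, named by group and replicate number. Aqp8 fills at least 95.9% of each WT cecum bar, Aqp3 at least 85.8% of each WT stomach bar, and Aqp1 and Aqp5 most of the bars of the Cdx2-/- and ileum groups.

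Against WT cecum, 5 of the 7 members passed the test in Cdx2-/- cecum, 3 of them higher (Aqp1, Aqp3 and Aqp5) and 2 lower (Aqp8 and Aqp11). The test was edgeR's quasi-likelihood F test with Benjamini-Hochberg adjustment over all 20502 genes, and it called 53.1% of them in this comparison. In Cdx2+/- cecum 5 members passed as well, 3 higher (Aqp3, Aqp5 and Aqp7) and 2 lower (Aqp8 and Aqp11), where 34.4% of all genes were called. The Cdx2+/- cecum libraries also had less smooth muscle marker RNA than WT cecum (117 to 524 against 1118 to 3786 CPM) and more of 6 pan-epithelial markers (21993 to 22366 against 11734 to 18537 CPM), and the part of this in the calls was not tested. In Cdx2-/-;Apc+/- cecum Aqp1, Aqp3 and Aqp5 were higher and Aqp8 and Aqp11 lower, with 52.8% of all genes called. These 3 comparisons share the WT cecum libraries. WT stomach differed from WT cecum in 4 members, Aqp3 and Aqp5 higher and Aqp8 and Aqp11 lower, with 43.7% of all genes called. A call was common among all genes in each of these comparisons, so the counts alone say little and the levels of the single genes follow.

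**Figure D2:**
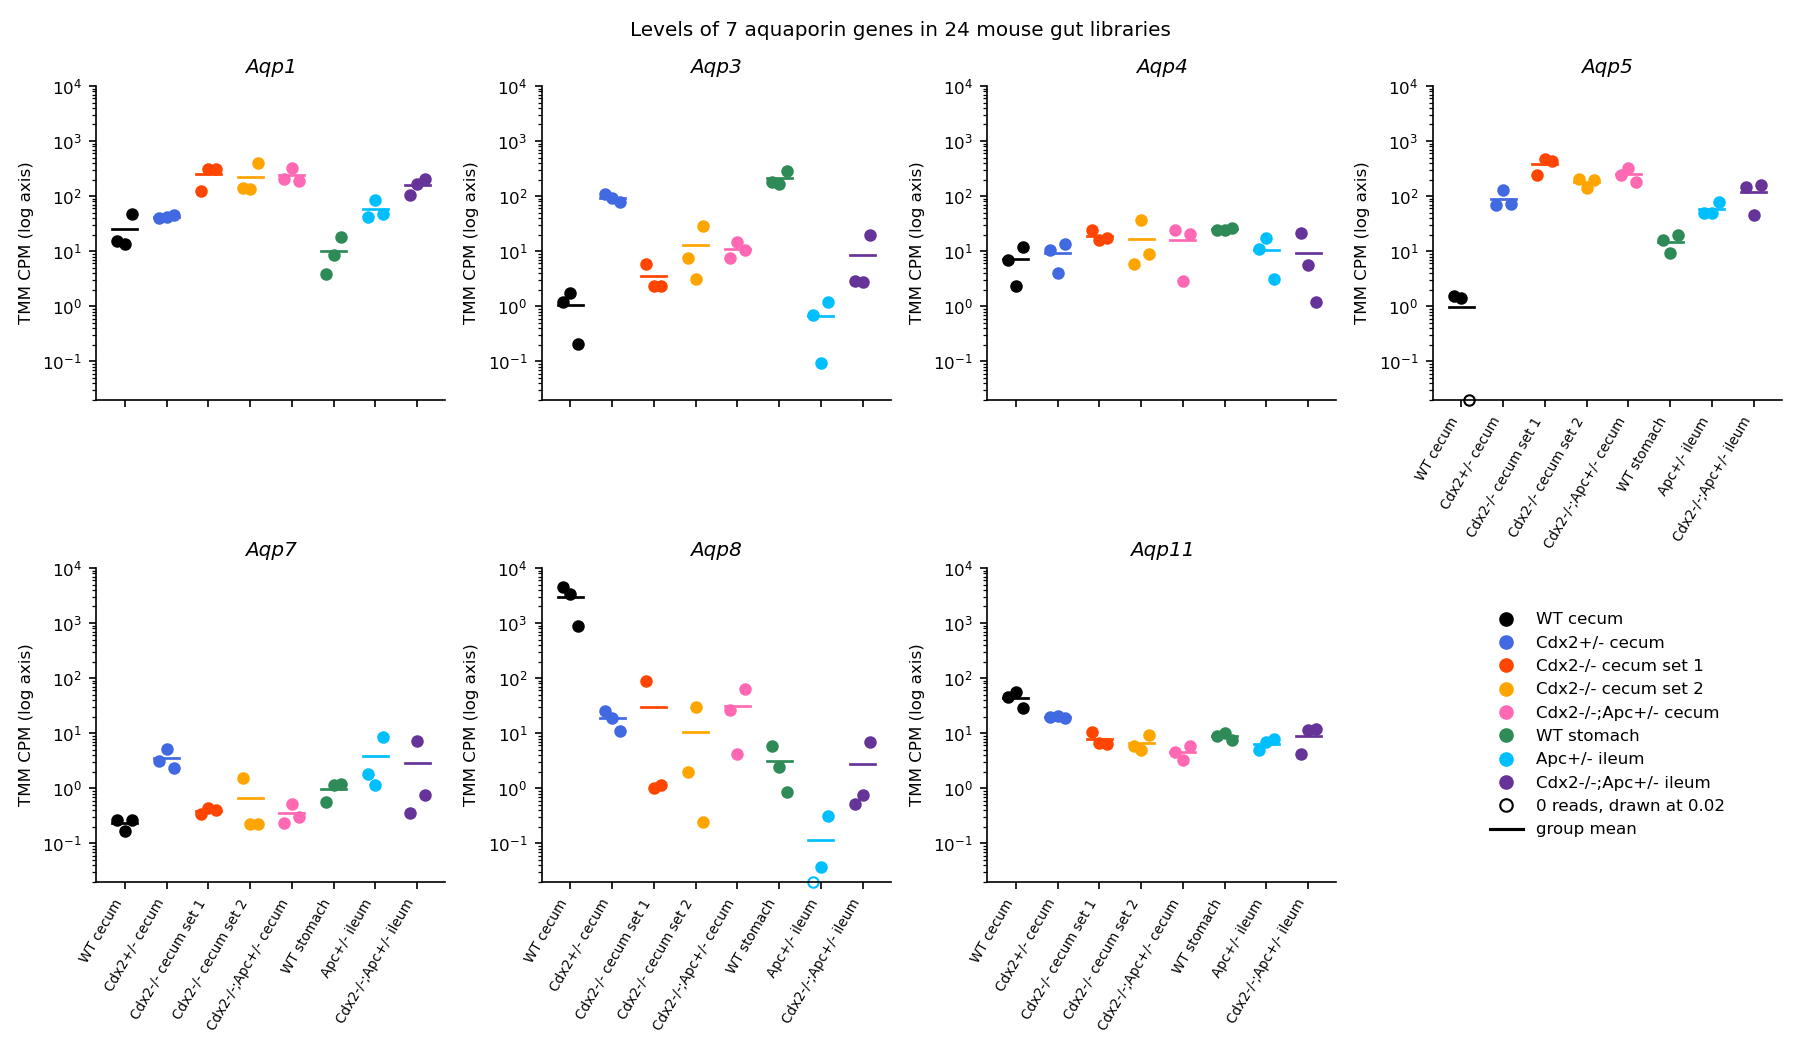
Each point is 1 library, each line a group mean, and the log axis gives the level in CPM after TMM scaling in the 8 groups, with 0 reads drawn as an open point on the axis floor. Aqp8 and Aqp11 were highest in WT cecum, Aqp3 in WT stomach, Aqp1 and Aqp5 in the cecum groups labelled Cdx2-/-, and Aqp4 overlapped between neighbouring groups throughout.

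Aqp8, the water channel of the large intestine, had the widest range of the 7. The 3 WT cecum libraries held 4556, 3329 and 881 CPM. Cdx2+/- cecum held 25.6, 19.1 and 11.01 CPM. The Cdx2-/- cecum held 87.4, 0.997 and 1.14 CPM in set 1 and 2.00, 29.8 and 0.245 CPM in set 2. Every mutant library thus lay below every WT library, while the Cdx2-/- libraries spread from 0.245 to 87.4 CPM. Aqp8 fell by 7.35 ± 1.43 (SE) on the log2 scale in Cdx2-/- cecum (edgeR adjusted p = 0.000261) and fell by 7.30 ± 1.95 in Cdx2+/- cecum (edgeR adjusted p = 0.00685). Without set 1 replicate 1 the first value was -9.75, and without set 2 replicate 5 it was -8.97. Cdx2-/-;Apc+/- cecum held 25.9, 4.12 and 64.5 CPM, -6.53 ± 1.88 against WT cecum (edgeR adjusted p = 0.00690), and -7.60 without its replicate 3. Cdx2-/- and Cdx2+/- cecum did not differ past the threshold (log2 -0.06 ± 1.28, edgeR adjusted p = 0.977), with libraries that overlapped. Against WT replicate 3 alone, the WT library with few gastric marker reads, the Cdx2+/- value was -5.57 (adjusted p = 0.0633) and the Cdx2-/-;Apc+/- value -4.81 (adjusted p = 0.0908).

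Aqp8 was low outside the cecum too. WT stomach held 5.89, 2.48 and 0.855 CPM, lower than WT cecum by a log2 value of -9.89 ± 2.17 (edgeR adjusted p = 0.00107; -10.77 without stomach replicate 1). The Apc+/- ileum held 0, 2 and 20 reads, or 0, 0.0371 and 0.309 CPM, and 0 reads in replicate 1 allow a level of up to 0.0510 CPM (3 reads, counting error only). It stood at the bottom of the order of the 8 groups, and its libraries did not overlap those of the next group, Cdx2-/-;Apc+/- ileum. WT cecum at the top was separated from all other groups, whereas the 6 groups from Cdx2-/-;Apc+/- cecum down to Cdx2-/-;Apc+/- ileum each overlapped the next.

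Markers of surface colonocytes were, like Aqp8, highest in WT cecum. Their 8 genes summed to 25328 to 46317 CPM in WT cecum, 10373 to 12223 CPM in Cdx2+/- cecum, and 1269 to 4153 CPM in the 6 Cdx2-/- libraries, with none of the 8 at 0 in any group. Among the WT libraries the lowest sum and the lowest Aqp8 level were both in replicate 3, and among the set 1 libraries the highest of both were in replicate 1. In set 2 replicate 6 had the highest sum, 2113 CPM, with the lowest Aqp8 level, and in Cdx2-/-;Apc+/- ileum replicate 3 had the lowest sum, 724 CPM, with the highest Aqp8 level. Each Cdx2+/- cecum library had a higher marker sum than each Cdx2-/- cecum library, although their Aqp8 levels overlapped. The part of these cells in the change of Aqp8 was not tested.

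**Figure D3:**
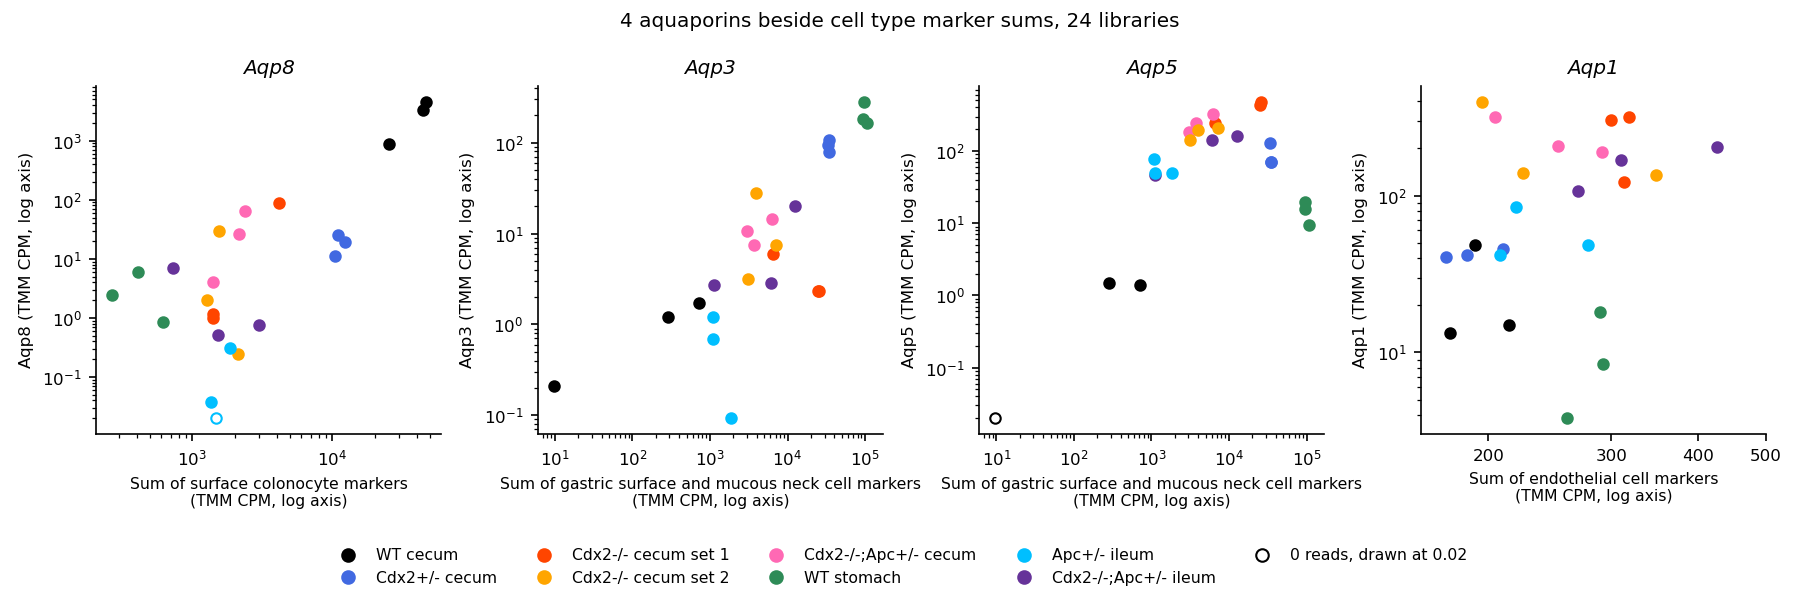
Each point is 1 of the 24 libraries, coloured by group, with the summed level of a cell type's markers (CPM, log axis) across and the level of an aquaporin (CPM, log axis) up. Aqp8 was high where surface colonocyte markers summed to at least 25328 CPM. Aqp3 was highest in the stomach and Cdx2+/- libraries with the largest gastric marker sums, and Aqp5 was lower in those stomach libraries than in the Cdx2-/- cecum. The highest Aqp1 level, 396 CPM, lay at an endothelial marker sum of 196 CPM, while the set 1 libraries summed to 300 to 318 CPM.

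Aqp11, the intracellular member, fell along with Aqp8 but within a narrower range. WT cecum held 44.9, 56.0 and 28.8 CPM and Cdx2+/- cecum 19.6, 20.9 and 18.6 CPM. The Cdx2-/- cecum held 10.7, 6.66 and 6.44 CPM in set 1 and 5.86, 4.97 and 9.43 CPM in set 2. Levels in Cdx2-/-;Apc+/- cecum were 4.49, 3.26 and 5.99 CPM. WT, Cdx2+/- and Cdx2-/- cecum therefore formed 3 levels whose libraries did not overlap. Aqp11 changed by -2.56 ± 0.29 on the log2 scale in Cdx2-/- cecum (edgeR adjusted p = 5.74e-07), by -1.14 ± 0.35 in Cdx2+/- cecum (edgeR adjusted p = 0.0158) and by -1.43 ± 0.29 from Cdx2+/- to Cdx2-/- cecum (edgeR adjusted p = 0.000999). The Cdx2+/- call was lost when WT replicate 2 or Cdx2+/- replicate 1 or 3 was left out, with adjusted p from 0.0501 to 0.0833, and against WT replicate 3 alone the value was -0.55 (adjusted p = 0.452). WT stomach, with 8.93, 10.1 and 7.53 CPM, lay among the Cdx2-/- libraries (log2 of Cdx2-/- over stomach -0.28 ± 0.30, edgeR adjusted p = 0.489).

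Aqp5, the channel of secretory glands, was close to absent in WT cecum and reached high levels in every mutant cecum. WT cecum held 57, 67 and 0 reads, that is 1.51, 1.40 and 0 CPM. The Cdx2-/- cecum held 247, 479 and 437 CPM in set 1 and 205, 142 and 197 CPM in set 2. With the Apc allele, Cdx2-/-;Apc+/- cecum held 243, 329 and 183 CPM, and the Cdx2+/- cecum 69.3, 128 and 70.6 CPM. No library of the 3 groups overlapped WT cecum, and those of set 1 all lay above those of set 2. The rise was 8.15 ± 0.87 on the log2 scale in Cdx2-/- cecum (edgeR adjusted p = 3.31e-07), 8.07 ± 0.88 in Cdx2-/-;Apc+/- cecum and 6.58 ± 0.83 in Cdx2+/- cecum, and without WT replicate 3 these were 7.51, 7.43 and 5.94. The Cdx2-/- mean was 293-fold and the Cdx2+/- mean 91.9-fold the WT cecum mean. Set beside WT replicate 3 alone, whose 0 reads allow 3, these means were at least 6383-fold and 2000.4-fold higher. Those bounds rest on 1 library.

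The level of Aqp5 in the mutant cecum exceeded that of the stomach. WT stomach held 15.9, 9.31 and 19.8 CPM, above WT cecum (log2 4.01 ± 0.75, edgeR adjusted p = 0.000254; 3.37 without WT cecum replicate 3) and below Cdx2-/- cecum (log2 of Cdx2-/- over stomach 4.14 ± 0.69, edgeR adjusted p = 0.000102). Cdx2-/- cecum lay above Cdx2+/- cecum by 1.57 ± 0.59 (edgeR adjusted p = 0.0418), a call lost when any 1 of 8 libraries was left out, with adjusted p from 0.0519 to 0.144, when set 2 alone was used (1.02, adjusted p = 0.225) or when set 1 replicates 2 and 3 were added up (1.51, adjusted p = 0.0676).

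Gastric surface and mucous neck cell markers, taken as a sum, were also higher in the mutant cecum. Their 8 genes summed to 9.60 to 720 CPM in WT cecum, 3130 to 25749 CPM in the 6 Cdx2-/- libraries, 33414 to 34461 CPM in Cdx2+/- cecum and 94222 to 106958 CPM in WT stomach, and none of the 8 was at 0 in any of these groups. The 2 WT cecum libraries with Aqp5 reads were the 2 with more of these markers. Muc5ac, 1 of the 8, had a group mean of 15.5 CPM in set 1, below the 26.6 CPM of WT cecum. It was higher in the other mutant groups, at 75.2 CPM in set 2, 48.4 CPM in Cdx2-/-;Apc+/- cecum and 1288 CPM in Cdx2+/- cecum. Across groups the order differed, since Aqp5 was highest in Cdx2-/- cecum and the markers in stomach. The part of gastric surface and mucous neck cells in the level of Aqp5 was not tested. Parietal cell markers, 6 genes, summed to 8074 to 16218 CPM in WT stomach and to at most 24.1 CPM in any Cdx2-/- cecum library.

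Aqp1, the water channel of endothelium, was the other high aquaporin of the Cdx2-/- cecum. Set 1 held 122, 316 and 306 CPM and set 2 held 138, 135 and 396 CPM. With the mutant Apc allele added, the Cdx2-/- cecum held 208, 318 and 190 CPM. WT cecum held 15.0, 13.4 and 48.3 CPM and Cdx2+/- cecum 40.3, 41.8 and 45.7 CPM. All 9 cecum libraries labelled Cdx2-/-, with or without the Apc allele, lay above all of the WT and Cdx2+/- libraries, while WT replicate 3 lay above every Cdx2+/- library. Aqp1 rose by 3.20 ± 0.57 on the log2 scale in Cdx2-/- cecum (edgeR adjusted p = 0.000115; 4.05 without WT replicate 3) and by 3.22 ± 0.61 in Cdx2-/-;Apc+/- cecum (edgeR adjusted p = 0.000215; 4.07 without WT replicate 3). Against WT replicate 3 alone the values were 2.29 (adjusted p = 0.0510) and 2.31 (adjusted p = 0.0569).

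Aqp1 separated the Cdx2-/- cecum from the Cdx2+/- cecum and from the stomach. It was higher in Cdx2-/- than in Cdx2+/- cecum by 2.47 ± 0.55 (edgeR adjusted p = 0.00201), while Cdx2+/- against WT cecum gave 0.73 ± 0.56 (edgeR adjusted p = 0.333), or 1.58 with an adjusted p of 0.0448 when WT replicate 3 was left out. WT stomach held 3.80, 8.42 and 18.1 CPM, below Cdx2-/- cecum (log2 of Cdx2-/- over stomach 4.54 ± 0.62, edgeR adjusted p = 1.08e-05; 5.27 without stomach replicate 3). Stomach and WT cecum overlapped in Aqp1, and their difference of -1.34 ± 0.57 missed the threshold with edgeR (adjusted p = 0.0638) but not with DESeq2 (adjusted p = 0.0434), and ran from -2.06 without stomach replicate 3 to -0.49 without WT cecum replicate 3. The 8 endothelial markers summed to 176 to 214 CPM in WT cecum, 174 to 210 CPM in Cdx2+/- cecum, 196 to 348 CPM in the 6 Cdx2-/- libraries and 260 to 292 CPM in WT stomach, with none at 0. The set 1 libraries, at 300 to 318 CPM, all lay above WT cecum in this sum. The Cdx2-/- library with the highest Aqp1, set 2 replicate 6, had the lowest endothelial sum of the 6, at 196 CPM. The part of endothelial cells in the level of Aqp1 was not tested.

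Aqp3, the aquaglyceroporin of epithelial basolateral membranes, was far higher in Cdx2+/- than in Cdx2-/- cecum. Cdx2+/- cecum held 108, 94.0 and 79.3 CPM, against 1.19, 1.74 and 0.208 CPM in WT cecum. The Cdx2-/- cecum held 5.97, 2.31 and 2.35 CPM in set 1 and 7.49, 3.15 and 28.2 CPM in set 2, and Cdx2-/-;Apc+/- cecum 7.53, 14.5 and 10.6 CPM. WT stomach was highest, with 180, 167 and 281 CPM, so that stomach, Cdx2+/- cecum, Cdx2-/- cecum and WT cecum did not overlap, in that order. Aqp3 rose by 6.52 ± 1.04 on the log2 scale in Cdx2+/- cecum (edgeR adjusted p = 9.42e-05; 7.17 without WT replicate 2) and was lower in Cdx2-/- than in Cdx2+/- cecum by -3.79 ± 0.68 (edgeR adjusted p = 0.000453; -4.42 without set 2 replicate 6).

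The smaller rise of Aqp3 in Cdx2-/- cecum depended on the libraries used. It was 2.73 ± 0.85 (edgeR adjusted p = 0.0109) with all of them, 2.10 (adjusted p = 0.0281) without set 2 replicate 6, 3.38 (adjusted p = 0.0168) without WT replicate 2, 2.21 (adjusted p = 0.0508) without WT replicate 3 and 1.81 (adjusted p = 0.0762) with set 1 alone. Against WT replicate 3 alone it was 5.01 (adjusted p = 0.0363). In Cdx2-/-;Apc+/- cecum it was 3.41 ± 0.93 (edgeR adjusted p = 0.00457; 4.06 without WT replicate 2). WT stomach exceeded WT cecum by 7.68 ± 1.09 (edgeR adjusted p = 1.29e-05; 8.33 without WT cecum replicate 2) and Cdx2-/- cecum lay below stomach by -4.95 ± 0.71 (edgeR adjusted p = 1.84e-05; -5.58 without set 2 replicate 6). The gastric marker sums given above were also highest in stomach and next in Cdx2+/- cecum. Squamous and basal keratinocyte markers, 8 genes, summed to 46.7 to 933 CPM in Cdx2+/- cecum and 1.23 to 5.32 CPM in WT cecum. They summed to 18.5 to 50.02 CPM in Cdx2-/- cecum and to 1.63 to 25.6 CPM in WT stomach, where Aqp3 was highest, and their part in the level of Aqp3 was not tested.

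Aqp7, the other aquaglyceroporin, reached at most 8.65 CPM in the 24 libraries. Cdx2+/- cecum held 3.10, 5.14 and 2.33 CPM against 0.265, 0.167 and 0.267 CPM in WT cecum, a log2 change of 3.90 ± 1.03 (edgeR adjusted p = 0.00623), or 3.71 with an adjusted p of 0.141 against WT replicate 3 alone. The Cdx2-/- cecum held 0.337, 0.443 and 0.403 CPM in set 1 and 1.56, 0.225 and 0.222 CPM in set 2. These overlapped WT cecum (1.13 ± 0.89, edgeR adjusted p = 0.299) and lay below all Cdx2+/- libraries (-2.77 ± 0.75, edgeR adjusted p = 0.00728; -3.56 without set 2 replicate 4), a call lost with set 2 alone (-2.39, adjusted p = 0.0625). Aqp7 and its neighbour Aqp3 were thus both higher in the Cdx2+/- than in the Cdx2-/- cecum. Small-intestinal enterocyte markers, 8 genes, summed to 2659 to 5769 CPM in Cdx2+/- cecum, 960 to 2281 CPM in WT cecum and 118 to 619 CPM in the 6 Cdx2-/- libraries. The 8 adipocyte markers summed to 254 to 284 CPM in Cdx2+/- cecum and 226 to 456 CPM in WT cecum, with Lep at 0 in the former and Cfd at 0 in the latter. Their part in the level of Aqp7 was not tested. WT stomach held 0.572, 1.14 and 1.22 CPM of Aqp7, above each WT cecum library. That difference was 2.05 ± 0.99 (edgeR adjusted p = 0.102), or 2.03 with an adjusted p of 0.00870 when only these 2 groups entered the fit.

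Aqp4, known from parietal cells and glia, passed the test in none of the 12 comparisons. Its levels were 7.05, 2.32 and 12.2 CPM in WT cecum, 10.7, 4.10 and 13.3 CPM in Cdx2+/- cecum, 24.2, 15.9 and 17.6 CPM in set 1 and 5.82, 36.3 and 8.80 CPM in set 2. WT stomach held 23.9, 24.8 and 26.9 CPM, above every WT cecum library, with a log2 difference of 1.81 ± 0.91 (edgeR adjusted p = 0.118), or 1.78 with an adjusted p of 0.0340 when only these 2 groups entered the fit. Each of its neighbours in the order of the 8 groups overlapped the next, and the highest group mean was 3.51-fold the lowest. The same ratio of group means was 25325 for Aqp8, 400 for Aqp5, 315 for Aqp3, 24.5 for Aqp1, 16.6 for Aqp7 and 9.45 for Aqp11. Enteric glia markers, 6 genes, summed to 649 to 881 CPM in WT cecum, where mean Aqp4 was lowest. They summed to 228 to 410 CPM in the 6 Cdx2-/- libraries and to 242 to 299 CPM in WT stomach. The part of glia and parietal cells in the level of Aqp4 was not tested.

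**Figure D4:**
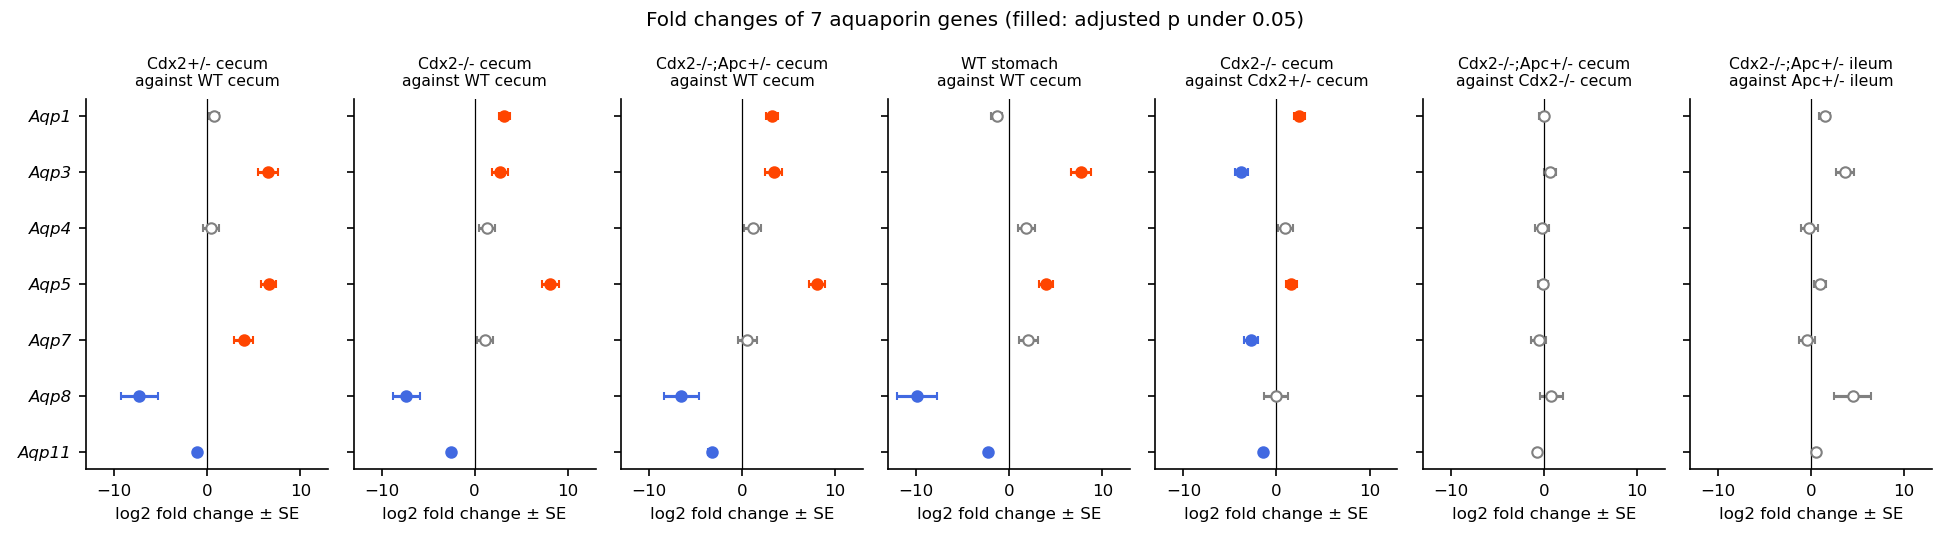
Points give log2 fold changes of the 7 members with bars of 1 SE in 7 comparisons, filled where the edgeR adjusted p was under 0.05, orange for higher and blue for lower. Aqp8 and Aqp11 fell in each comparison with WT cecum and Aqp5 rose in each, Aqp3 and Aqp7 were lower in Cdx2-/- than in Cdx2+/- cecum, and no point is filled in the 2 panels on the right.

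Between the Cdx2-/- and the Cdx2+/- cecum 5 members passed the test, Aqp1 and Aqp5 higher and Aqp3, Aqp7 and Aqp11 lower in Cdx2-/-, with 40.3% of all genes called. Between Cdx2-/- cecum and WT stomach 3 passed, Aqp1 and Aqp5 higher and Aqp3 lower in the mutant, with 39.4% of all genes called. Aqp8 was at 3.08 ± 2.57 CPM (SD, n = 3) in stomach and 20.3 ± 34.8 CPM (SD, n = 6) in Cdx2-/- cecum, and its log2 difference of 2.54 ± 1.49 did not pass (edgeR adjusted p = 0.186) and ran from 0.14 to 3.42 on leaving out single libraries.

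No member passed the test for the mutant Apc allele in the Cdx2-/- cecum. With edgeR's quasi-likelihood test 0 of 7 were called in Cdx2-/-;Apc+/- against Cdx2-/- cecum, 1 had an unadjusted p under 0.05 (Aqp11, log2 -0.68 ± 0.31), and DESeq2 also called 0, where edgeR called 8.43% of all genes. The log2 differences of Aqp1 and Aqp5 were 0.02 ± 0.48 and -0.08 ± 0.55. Aqp8 gave 0.82 ± 1.25 (-0.25 to 3.22 on leaving out single libraries), with libraries from 4.12 to 64.5 CPM in one group and from 0.245 to 87.4 CPM in the other. Between set 2 and set 1 of the Cdx2-/- cecum 0 of 7 passed, 1 had an unadjusted p under 0.05 (Aqp3, 1.86 ± 0.84), and DESeq2 also called 0, with 10.5% of all genes called by edgeR.

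In the ileum the levels of Apc+/- mice differed from those of WT cecum in 4 members, Aqp5 and Aqp7 higher and Aqp8 and Aqp11 lower, with 55.4% of all genes called. Tissue, Apc allele and mouse line differ at once in that comparison. Aqp5 held 49.4, 49.0 and 78.3 CPM in the Apc+/- ileum, a log2 difference of 5.98 ± 0.81 (edgeR adjusted p = 6.11e-06; 5.34 without WT cecum replicate 3). Aqp7 held 1.80, 1.17 and 8.65 CPM, with a difference of 4.04 ± 1.03 (edgeR adjusted p = 0.00272), or 3.84 (adjusted p = 0.102) against WT cecum replicate 3 alone and 2.66 (adjusted p = 0.0288) without its replicate 3. Aqp8 differed by -14.53 ± 2.62, or by -17.15 without replicate 3, which held 20 of its 22 reads. Aqp11 held 4.90, 6.83 and 7.80 CPM, lower than WT cecum by -2.73 ± 0.37. Aqp1 gave 1.18 ± 0.56 (edgeR adjusted p = 0.0823), or 2.03 (adjusted p = 0.00791) without WT cecum replicate 3.

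No member passed the test between the ileum libraries labelled Cdx2-/-;Apc+/- and Apc+/-, in which Cdx2 itself overlapped. With edgeR 0 of 7 members passed, 3 had an unadjusted p under 0.05 (Aqp1, Aqp3 and Aqp8) and DESeq2 called 1, Aqp3, while edgeR called 0.444% of all genes. Aqp3 was at 0.698, 0.0928 and 1.21 CPM in Apc+/- and 2.86, 2.74 and 20.1 CPM in Cdx2-/-;Apc+/- ileum. The libraries did not overlap, and the log2 difference was 3.66 ± 0.94 with an edgeR adjusted p of 0.0914 and a DESeq2 adjusted p of 0.00209. Leaving out Cdx2-/-;Apc+/- ileum replicate 2, the library with 178 CPM of Cdx2, gave 4.09 with an edgeR adjusted p of 0.0256, and leaving out replicate 3, the library with 20.1 CPM of Aqp3, gave 2.05. Aqp1 was at 41.7, 84.6 and 48.2 CPM against 106, 168 and 204 CPM, again without overlap (1.46 ± 0.57, edgeR adjusted p = 0.345). Aqp8 was at 0.513, 0.743 and 7.06 CPM in Cdx2-/-;Apc+/- ileum, above the Apc+/- libraries (4.50 ± 2.00, edgeR adjusted p = 0.450; 2.37 to 7.11 on leaving out single libraries).

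Cdx2-/-;Apc+/- ileum replicate 2 stood apart in several members. It held 46.3 CPM of Aqp5 against 144 and 163 CPM in replicates 1 and 3, and 7.38 CPM of Aqp7 against 0.357 and 0.754 CPM. Its small-intestinal enterocyte markers summed to 13642 CPM, against 323 and 1253 CPM in the other two. Between Cdx2-/-;Apc+/- cecum and ileum only Aqp7 passed the test, with -3.02 ± 0.98 (edgeR adjusted p = 0.0422) and 16.2% of all genes called, and without that replicate the value was -0.68 (adjusted p = 0.649). The call was also lost on leaving out any 1 of 8 other libraries, with adjusted p from 0.0503 to 0.128. Aqp11 was at 4.24, 11.2 and 11.8 CPM in that ileum group, and its difference of -0.99 ± 0.35 had an adjusted p of 0.0595 with edgeR and 0.0353 with DESeq2.

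The change on going from the control to the Cdx2-/-;Apc+/- tissue was compared between cecum and ileum in 1 contrast, with WT cecum and Apc+/- ileum as the starting points, which differ in the Apc allele. There 3 of 7 members passed, Aqp8 and Aqp11 with a more negative change in the cecum and Aqp5 with a larger rise there. In this contrast 34.7% of all genes were called. Aqp8 started at a mean of 2922 CPM in WT cecum but 0.115 CPM in Apc+/- ileum, with almost no room to fall. Aqp11 started at 43.3 and 6.51 CPM and Aqp5 at 0.970 and 58.9 CPM, in that order. Mean Cdx2 was 97.8 CPM in Cdx2-/-;Apc+/- and 88.6 CPM in Apc+/- ileum. The contrast cannot tell a different response from a different starting level. The difference was -11.03 ± 2.70 on the log2 scale for Aqp8 (edgeR adjusted p = 0.00417), -3.72 ± 0.50 for Aqp11 (edgeR adjusted p = 3.14e-05) and 7.08 ± 1.02 for Aqp5 (edgeR adjusted p = 5.35e-05). For Aqp8 it ran from -13.64 without Apc+/- ileum replicate 3 to -8.90 without Cdx2-/-;Apc+/- ileum replicate 3, with -12.10 without Cdx2-/-;Apc+/- cecum replicate 3. For Aqp5 it was 6.43 without WT cecum replicate 3. The difference for Aqp1 was 1.77 ± 0.79 (edgeR adjusted p = 0.0913), or 2.61 (adjusted p = 0.0115) without WT cecum replicate 3. That for Aqp7 was 1.02 ± 1.34 (edgeR adjusted p = 0.582), or 3.36 (adjusted p = 0.0366) without Cdx2-/-;Apc+/- ileum replicate 2.

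Of the 5 other family genes, Aqp2 and Aqp9 passed the filter on low counts, and Mip, Aqp6 and Aqp12 did not, with 7, 6 and 38 reads in all 24 libraries together. Aqp2, the channel known from the collecting duct of the kidney, had 0 reads in each WT cecum library. It reached 0.598, 0.712 and 0.672 CPM in set 1 and 0.346, 0.225 and 0.356 CPM in set 2, at least 7.79-fold higher than WT cecum with 3 reads per WT library as the floor. The edgeR adjusted p was 6.74e-06. Aqp2 lies 6234 bases from Aqp5, and in the 6 Cdx2-/- cecum libraries it had 1.49 to 2.42 reads per 1000 reads of Aqp5. This ratio ran from 0.544 to 3.76 in Cdx2+/- cecum and from 1.93 to 2.04 in Cdx2-/-;Apc+/- cecum. In WT stomach it ran from 0 to 2.48, and in the ileum groups from 1.43 to 3.41. Aqp9, an aquaglyceroporin known from the liver, was highest in the Apc+/- ileum, with 4.27, 2.25 and 3.52 CPM against at most 0.0743 CPM in WT cecum (log2 5.97 ± 0.98, edgeR adjusted p = 5.06e-05), and rose by 3.37 ± 0.90 in Cdx2-/- cecum (edgeR adjusted p = 0.00403).

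Water follows ions, and 17 genes of ion transport in gut epithelium were read beside the aquaporins. In Cdx2-/- cecum 6 rose and 5 fell against WT cecum, where 53.1% of all genes were called, with a median log2 change of -0.19 beside 0.04 over all genes tested. Among those that fell were the chloride-bicarbonate exchanger Slc26a3 (-7.91 ± 1.05, edgeR adjusted p = 4.3e-06) and the sodium-proton exchangers Slc9a3 (-4.99 ± 0.80) and Slc9a2 (-3.87 ± 0.36, edgeR adjusted p = 7.23e-08). Among those that rose were the potassium channel Kcnn4 (2.89 ± 0.25, edgeR adjusted p = 2.19e-08), the chloride channel Ano1 (4.46 ± 0.47, edgeR adjusted p = 2.85e-07), the cotransporter Slc12a2 (2.48 ± 0.33) and the potassium channel Kcnq1 (1.99 ± 0.22). In Cdx2+/- cecum 7 rose and 2 fell, where 34.4% of all genes were called, with a median of 0.72 beside -0.05 over all genes. Slc26a3 is also one of the 8 surface colonocyte markers. Slc26a3, Slc9a3 and Slc12a2 were named after their values were seen.

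Glycerol passes through Aqp3 and Aqp7, and 12 genes of glycerol and glycerolipid handling were read beside them. Of these genes 2 rose and 7 fell in Cdx2-/- cecum (53.1% of all genes called), with a median of -0.73 beside 0.04 over all genes. The lipases that release glycerol from fat were lower, Pnpla2 by -2.26 ± 0.26 (edgeR adjusted p = 6.89e-07), Mgll by -1.61 ± 0.24 (edgeR adjusted p = 1.95e-05) and Lipe by -1.90 ± 0.36 (edgeR adjusted p = 0.000210), and so was the lipid droplet coat gene Plin2, by -1.70 ± 0.27. In Cdx2+/- cecum 5 rose and 4 fell (34.4% of all genes called), with a median of 0.89 beside -0.05 over all genes. Of 10 genes known to anchor or work with aquaporins, 2 rose and 3 fell in Cdx2-/- cecum, a share near the 53.1% of all genes called, with a median of -0.05 beside 0.04 over all genes. Trpv4, a calcium channel that responds to cell swelling, rose by 3.33 ± 0.45 (edgeR adjusted p = 5.15e-06) and Dmd by 0.93 ± 0.23, while Akap13, an anchoring protein of protein kinase A, fell by 1.78 ± 0.15.

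The members fell into patterns over the 24 libraries that are given as a description, since the libraries share groups and the groups set most of the spread. Log2 levels of Aqp8 and Aqp11 had a Pearson r of 0.69, those of Aqp1 and Aqp5 0.63, and Aqp5 went opposite to Aqp11 with -0.69 and to Aqp8 with -0.54. The genes most like each member were taken from all tested genes of at least 1 CPM on average. Those most like Aqp8 were Ihh, which encodes a hedgehog ligand of the gut epithelium, with r = 0.92, and then Dio1, Adra2a, Cyp2c55 and Ces1g. Those most like Aqp5 were Clu (r = 0.96), Chit1, Mfge8, Ly6d and the gastrokine Gkn3. The group mean of Clu was 70.3 CPM in WT cecum and 16282 CPM in set 1. Those most like Aqp3 were Krt79 (r = 0.96), Manba, Dppa5a, the gastric mucin Muc5ac and Gsta1. Muc5ac was at 26.6 CPM in WT cecum, 1288 CPM in Cdx2+/- cecum and 12015 CPM in WT stomach. In Cdx2-/- cecum it was at 15.5 CPM in set 1 and 75.2 CPM in set 2. Those most like Aqp7 were the brush border peptidase Anpep (r = 0.91), which is also a small-intestinal enterocyte marker here, then Pdzk1, Slc26a6, Xpnpep1 and Fgf15. Aqp11 was most like Hsd17b13 (r = 0.95), Aqp1 most like Hgfac (r = 0.91) and Aqp4 most like Nr2f1, with the lowest such value of the 7 (r = 0.80).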

How the data were processed

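RNA sequencing of 24 mouse gut libraries was analysed. Each deposited file gave raw read counts per Ensembl gene for 1 library. Per the labels' protocols, RNA came from Trizol extraction and the library kit was TruSeq mRNA. The tools the authors applied, per the submitters' processing notes, were CASAVA, TopHat2 2.0.11 and HTSeq 0.5.3p3, with the genome build GRCm38. The annotation release and the settings for counting, strand included, are not stated there. The 5 entries of each file that name no gene were left out of library sizes and tests. They were reads outside genes (6.62 to 10.4% of everything a file counts), ambiguous reads (2.00 to 3.44%) and reads with more than 1 alignment (17.3 to 30.0%). Of 39179 identifiers, 37607 matched a symbol in GENCODE.

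From the counts, edgeR 4.0.16 in R 4.3.3 fitted all 24 libraries in 8 groups with TMM factors, its default filter on low counts and the quasi-likelihood F test. The threshold for a call was an adjusted p (Benjamini-Hochberg) under 0.05 over 20502 genes. Contrasts of Cdx2-/- cecum averaged the means of its 2 sets. The SE is the log2 fold change divided by the square root of F. CPM are TMM-scaled, and RPKM divides them by summed exon length. The fit was tested on simulated data. Depth was 36567685 to 87975179 gene reads per library, and intervals and floors of 3 reads cover counting error only. Where a fit leaves 1 WT cecum library, that library is assumed to vary like the other groups.

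All 7 members were named, with the other 5 family genes, Cdx2, up to 4 genes per list with the smallest adjusted p in Cdx2-/- against WT cecum, and the 5 genes most correlated with each member over log2 CPM (prior count 2). One gene that this rule names is not reported here. The members and lists were chosen with earlier results of these data known. Alternatives were RLE scaling, no count filter, DESeq2 1.42.0, only the groups compared, single sets, a replicate block, set 1 replicates 2 and 3 added up, and leaving out each library. The comparison with WT cecum replicate 3 alone was chosen after seeing the data. Promoter sequences were RefSeq's.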

Additional observations from a re-analysis of the deposited data

Results flagged for a closer look

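Among the 6 Cdx2-/- cecum libraries 3 members had a library far above the rest on the CPM scale. Aqp3 was at 28.2 CPM in set 2 replicate 6, Aqp7 at 1.56 CPM in set 2 replicate 4 and Aqp8 at 87.4 CPM in set 1 replicate 1, each separated from the next library by more of the group's range than Dixon's critical value for 6 samples. Chance flags about 1 in 20 groups in this way only if the values are independent and normally distributed, which was not checked. The 6 libraries pool 2 sets, and the rule was not applied to log2 levels. The 3 values came from 3 different libraries. In set 1 replicate 1 the surface colonocyte markers summed to 4153 CPM, the highest of the 6, and their part in the level of Aqp8 was not tested.

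The change from control to Cdx2-/-;Apc+/- tissue differed between cecum and ileum, by the test of the difference itself, for Aqp8 (-11.03 on the log2 scale), Aqp11 (-3.72) and Aqp5 (7.08). The control groups of the 2 tissues differ in the Apc allele, and genotype and tissue cannot be told apart there. They also start from different levels, with mean Aqp8 at 2922 CPM in WT cecum and 0.115 CPM in Apc+/- ileum. A different response and a different starting level cannot be told apart either.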

How the results depend on the processing

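No result reversed its direction past the threshold under any alternative run. Apart from leaving out single libraries, 82 recomputed counts of called members stayed within 1.5 times the reported one and 9 did not. Against WT cecum replicate 3 alone, 2 members were called in Cdx2+/- cecum, 3 in Cdx2-/-;Apc+/- cecum and 0 in Cdx2-/-;Apc+/- cecum against ileum. With set 2 alone, 3 were called in Cdx2-/- against Cdx2+/- cecum. DESeq2 called 1 in Cdx2-/-;Apc+/- against Apc+/- ileum and 2 in Cdx2-/-;Apc+/- cecum against ileum. That last count was 0 with only the groups compared, 0 with set 1 replicates 2 and 3 added up, and 0 with the replicate block. Leaving out single libraries gave 0 to 1 called in Cdx2-/-;Apc+/- against Apc+/- ileum and 0 to 2 in Cdx2-/-;Apc+/- cecum against ileum. The cause of these changes was not tested, beyond the smaller number of libraries in some fits.

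Replicate numbers were not taken as pairs, because over 21 pairs of groups the correlations of same-numbered deviations ran from -0.298 to 0.33 and in 0 of the pairs were all above 0.1. The replicate block was fitted without set 2, whose replicates are numbered 4 to 6, and with it Aqp3 in Cdx2-/- (set 1) against WT cecum gave 1.72 with an adjusted p of 0.108. Aqp1 passed the threshold under the block in WT stomach (-1.39) and in Apc+/- ileum (1.31), both against WT cecum, and in the difference between cecum and ileum (1.98, adjusted p = 0.0212). The block called 9637 genes in Cdx2-/- (set 1) against WT cecum, beside 9632 without the block on the same libraries, and 82 beside 113 in Cdx2-/-;Apc+/- against Apc+/- ileum. For set 2 against set 1, no paired analysis was possible because the sets share no replicate number. Of the fold changes of single members, 612 kept their side of the threshold, 16 fell below it and 9 rose above it, and on leaving out single libraries 1982, 21 and 13 did. RLE scaling moved none of the 56 group levels by more than 1 SD. Genes of few reads, such as Aqp2 in each group and Aqp8 in the Apc+/- ileum, are limited by depth.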
